A study of Mus musculus with 4 samples.

Results

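S100 proteins and annexins are families of calcium-binding proteins, and 10 of their genes were examined in NSCL61, a mouse line of glioma-initiating cells. The genes were S100a1, S100a4, S100a6, S100a10, S100a11, S100a13, Anxa1, Anxa2, Anxa3 and Anxa5. They were chosen with earlier results of these data known, and their probes were found by symbol in the platform annotation. Each gene had 1 probe, so 10 of the 23473 probes were involved, and all 10 had a value on all 4 arrays. NSCL61 was made from mouse neural stem cells that lack p53 by overexpression of an oncogenic HRas, features that both groups share; the labels give brain, strain C57BL6 and stage P0 as the origin. The control group was 2 arrays titled with the line's name alone, which the series title ties to a control hairpin. The Eva1 shRNA group was 2 arrays of the line carrying a short hairpin RNA against Eva1, a cell adhesion gene now named Mpzl2. The protocols give hygromycin selection for 2 weeks under growth and for 1 week under treatment, and the longer time is given for the Eva1 shRNA cells. Hygromycin selection of the controls is not described separately and so is uncertain, and nothing says whether the 2 arrays of a group were separate cultures. The p-values then measure only the spread between these arrays, which may be technical.

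S100 proteins are small proteins with a pair of EF-hand loops that bind calcium, usually act as dimers and expose a binding face for target proteins when calcium rises. Annexins bind acidic phospholipids of membranes in the presence of calcium and take part in membrane repair, vesicle traffic and clotting. The families meet in defined complexes: S100a10 dimers bind the N-terminus of Anxa2 and form a cell-surface site for plasminogen activation, and S100a11 binds the N-terminus of Anxa1. In gliomas several of these genes are known as markers of the mesenchymal, invasive type of tumour cell.

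The largest difference of the set was in S100a4, which was 11.9-fold higher in the Eva1 shRNA cells. Anxa1 was 2.06-fold higher and S100a1 2.00-fold higher, S100a11 was 1.65-fold lower, and the other 6 genes did not pass the test. Thus 3 of the 10 genes rose and 1 fell at an adjusted p under 0.05 (limma, two-sided, Benjamini-Hochberg over 13765 genes). Of all genes tested, 12.5% were called higher and 13.5% lower, and 26.0% in either direction, beside 4 of the 10 here. Higher genes made up 48.1% of all calls, and 67.7% with the authors' scaling, under which the median change over all genes was 0.18. The median log2 change of the 10 genes was 0.23, beside -0.01 over all genes. Log2 changes are Eva1 shRNA minus control on quantile-normalized log2 intensity, and each is given with its standard error (SE). The number of arrays limits the precision, and an exact permutation test of 2 arrays against 2 cannot give a p below 0.333.

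**Figure D1:**
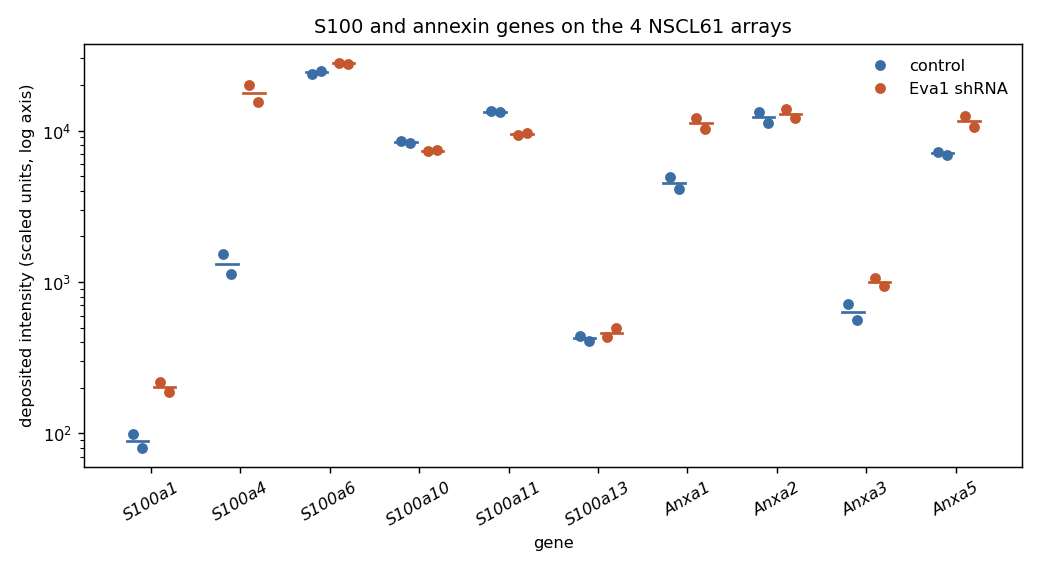
Deposited intensity (log axis) of the 10 genes, with a point for each of the 2 control and 2 Eva1 shRNA arrays and a bar at each group mean. S100a4 stands at 1123 and 1523 in control cells and at 15463 and 20104 in Eva1 shRNA cells, while the points of S100a13 and Anxa2 overlap between the groups.

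The sequences just before the transcription starts are shown for 4 genes that behaved differently: S100a4 and Anxa1, which rose, S100a11, which fell, and Anxa2, whose groups overlapped. Each is the 150 bases before the annotated start, 5′ to 3′ on the gene's strand, from RefSeq (GRCm38.p6), which had such a window for 8 of the 10 genes. S100a4 lies at chr3:90603620-90603769 (plus strand), S100a11 at chr3:93520346-93520495 (plus), Anxa2 at chr9:69453533-69453682 (plus) and Anxa1 at chr19:20390672-20390821 (minus). Capitals mark matches to TATAAA (the TATA box), TGANTCA (the AP-1 type site) and GGGCGG (the GC box), each searched on both strands.
S100a4: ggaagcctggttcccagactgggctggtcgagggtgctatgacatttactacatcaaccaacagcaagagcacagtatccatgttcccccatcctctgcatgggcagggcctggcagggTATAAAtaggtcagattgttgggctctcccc
Anxa1: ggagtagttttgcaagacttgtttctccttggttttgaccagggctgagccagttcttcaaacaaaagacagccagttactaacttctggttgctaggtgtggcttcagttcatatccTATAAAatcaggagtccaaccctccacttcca
S100a11: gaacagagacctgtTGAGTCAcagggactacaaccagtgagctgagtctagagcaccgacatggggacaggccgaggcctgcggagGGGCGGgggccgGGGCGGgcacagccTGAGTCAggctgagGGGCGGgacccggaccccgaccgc
Anxa2: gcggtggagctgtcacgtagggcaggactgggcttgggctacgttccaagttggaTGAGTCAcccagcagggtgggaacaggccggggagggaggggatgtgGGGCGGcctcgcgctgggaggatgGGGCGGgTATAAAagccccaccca
A TATAAA match began 31 bases before the start of S100a4, 32 before that of Anxa1 and 17 before that of Anxa2. These were 3 of the 8 windows, beside 7.57% of all 32851 promoter windows of the same length. S100a11 had no TATAAA match but TGANTCA matches 136 and 38 bases before its start and 3 GGGCGG matches. Anxa2 had 1 TGANTCA match, 95 bases before its start, and 2 GGGCGG matches. TGANTCA was thus in 2 of the 8 windows, against 4.24% of all windows, and GGGCGG in 2 of 8 against 28.6%. The windows of S100a4 and Anxa1 held 1 and 0 CpG dinucleotides, and those of S100a11 and Anxa2 held 10 and 8, beside a median of 4 over all windows. The windows not printed held none of the 3 motifs: S100a1, which also rose, had 4 CpG dinucleotides, S100a6 had 1, S100a13 had 6 and Anxa5 had 10. These matches describe the letters of the windows and say nothing of binding.

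S100a4, also called metastasin or FSP1, binds non-muscle myosin heavy chain and is known for its link to cell motility. Its deposited intensities were 1523 and 1123 in control cells (array 1, then array 2, here and below) and 20104 and 15463 in Eva1 shRNA cells, with means of 1323 ± 282 and 17784 ± 3281 (SD, n = 2 each). The lowest Eva1 shRNA value lay far above the highest control value. The log2 change was 3.57 (SE 0.20, adjusted p = 0.00105 in limma), the rise of rank 20 among 13765 genes. S100a4 passed under all 13 other ways of processing, with an adjusted p of at most 0.021.

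S100a1, a regulator of calcium handling known best from muscle and nerve, had intensities of 98.7 and 80.4 in control cells and 219 and 187 in Eva1 shRNA cells. Both Eva1 shRNA arrays were above both control arrays. This gave a log2 change of 1.00 (SE 0.17, limma adjusted p = 0.0139). The call was lost on leaving out control array 2 (adjusted p = 0.0556) or either array of the knockdown cells (0.0895 for array 1, 0.0617 for array 2).

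S100a6, or calcyclin, which binds the ubiquitin-ligase adaptor Cacybp, was bright on every array. Its intensities were 23551 and 24866 in control cells and 27821 and 27635 in Eva1 shRNA cells. The deposited values did not overlap, but the normalized ones did, and the log2 change was 0.03 with a 95% interval of -0.31 to 0.37 (limma adjusted p = 0.898). Its sign changed with the scaling, at 0.20 with the authors' scaling and -0.01 with median centring. The change of S100a6 was also negative, at -0.0049, without Eva1 shRNA array 1. The highest deposited intensity on each array lay above these values, at 55245 to 58248. Where the scanner's ceiling lay is not given in the sources used here.

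S100a13, which assists the export of Fgf1 and interleukin 1 alpha from cells, also did not pass. The intensities were 438 and 409 in control cells and 431 and 497 in Eva1 shRNA cells, and the groups overlapped. S100a13 had a log2 change of -0.04 with an interval of -0.44 to 0.36 (limma adjusted p = 0.879), and it was 0.13 with the authors' scaling. In RefSeq the listed starts of S100a1 and S100a13 point away from each other and stand 105 bases apart. Between these neighbours S100a1 rose and S100a13 did not pass; a difference between their changes was not tested.

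S100a10 and S100a11, the partners of Anxa2 and Anxa1, were the members whose Eva1 shRNA arrays both lay below both control arrays. S100a11 had intensities of 13359.7 and 13179 in control cells and 9320.4 and 9630.2 in Eva1 shRNA cells. The arrays of each group lay close together and the groups did not overlap. The log2 change was -0.72 (SE 0.14, limma adjusted p = 0.0189), but the call was lost whichever array was left out, with adjusted p-values from 0.0674 to 0.114. S100a10 had intensities of 8574 and 8305 in control cells and 7281 and 7412 in Eva1 shRNA cells, again with no overlap. Its log2 change was -0.47 with an interval of -0.81 to -0.12, and the adjusted p of 0.0584 missed the threshold. With the authors' scaling the change of S100a10 was -0.20, and that of S100a11 was -0.49 (limma adjusted p = 0.0496). S100a10 passed without the dimmest 25% of probes (adjusted p = 0.022), with 16 intensity units added before log2 (0.00408) and in limma's fit with a mean-variance trend (0.00665).

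Among the annexins, Anxa1, a protein that dampens inflammation through formyl peptide receptors, rose. Its intensities were 4940.0 and 4127 in control cells and 12067 and 10227 in Eva1 shRNA cells, without overlap. Anxa1 had a log2 change of 1.04 (SE 0.17, limma adjusted p = 0.0115). The call was lost on leaving out control array 2 (adjusted p = 0.0506) or either array of the knockdown cells (0.0782 for array 1, 0.053 for array 2).

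Anxa5, the annexin used as a stain for phosphatidylserine on dying cells, had intensities of 7251 and 6933 in control cells and 12514 and 10607 in Eva1 shRNA cells. The groups did not overlap, and normalization made the distance between them smaller. The log2 change was 0.44 (SE 0.14, limma adjusted p = 0.0747), and it was 0.70 with the authors' scaling, where it passed (adjusted p = 0.027). Anxa3 had intensities of 713 and 559.9 in control cells and 1062 and 945 in Eva1 shRNA cells, also without overlap. Its log2 change was 0.52 (SE 0.17, limma adjusted p = 0.0815), and with the authors' scaling 0.67 (adjusted p = 0.0456). Both genes also passed without the dimmest 25% of probes (Anxa5 0.0312, Anxa3 0.0267), with 16 units added (0.00695 and 0.0119) and with the mean-variance trend (0.0111 and 0.00744).

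Anxa2, the membrane partner of S100a10, had intensities of 13187 and 11201 in control cells and 13851 and 12011 in Eva1 shRNA cells. The groups overlapped, with array 1 above array 2 in each. Anxa2 had a log2 change of -0.14 with an interval of -0.52 to 0.24 (limma adjusted p = 0.536), and 0.09 with the authors' scaling. Side by side, S100a10 had -0.47 and Anxa2 -0.14 on this scale, and S100a11 had -0.72 where Anxa1 had 1.04. Normalized groups did not overlap for 7 of the 10 genes, 5 higher and 2 lower. Over all genes 66.7% did not overlap, 32.6% higher and 34.1% lower, so this count is near the background.

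**Figure D2:**
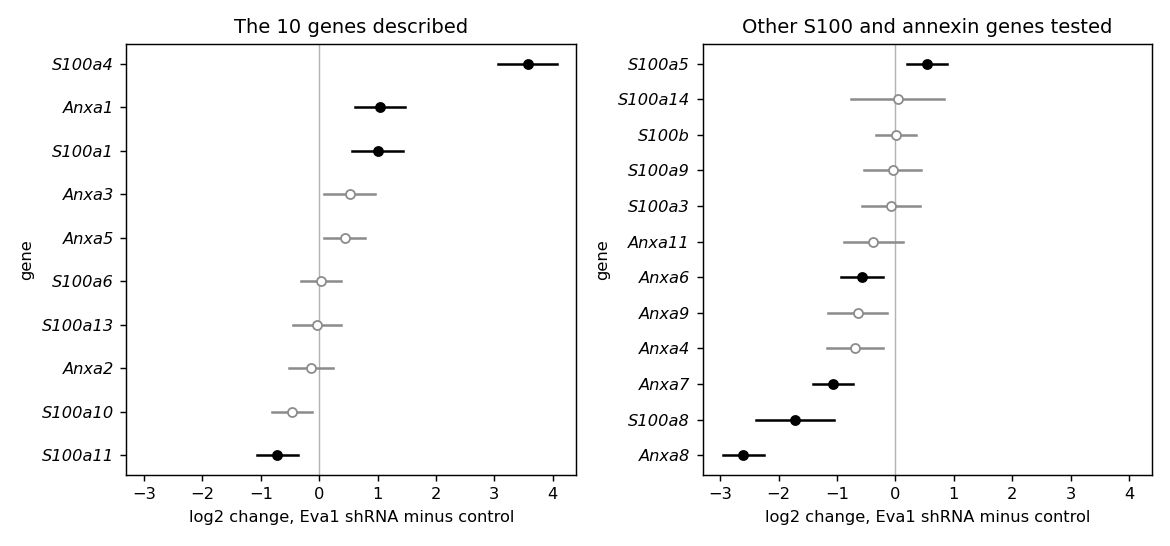
Log2 change (Eva1 shRNA minus control, horizontal axis) with its 95% interval for the 10 genes and for the 12 other family genes tested; filled black points passed limma's test at adjusted p under 0.05 and open grey points did not. S100a4 lies at 3.57 on the left, and Anxa8 at -2.60 and S100a8 at -1.72 on the right.

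Among the other genes of the families more were called lower than higher. Of 18 other S100 and annexin genes listed, 14 had a named probe and 12 a value on all arrays; S100g and Anxa10 were blank on 1 array each. Of the 12, 4 fell, 1 rose and 7 did not pass, with a median of -0.48. The mean intensity was under 25 for 6 of the 12, so sizes are uncertain for those. Over all genes 13.5% were called lower and 12.5% higher. Anxa8, an annexin of epithelia and leukaemia cells, had intensities of 98.3 and 104 in control cells and 18.8 and 19.4 in Eva1 shRNA cells. Its log2 change was -2.60 (SE 0.14, limma adjusted p = 0.00105), the fall of rank 64, and -1.88 with 16 units added. Anxa7, or synexin, a promoter of membrane fusion, had intensities of 198 and 196 in control cells and 109.8 and 104 in Eva1 shRNA cells, a log2 change of -1.06 (SE 0.13, limma adjusted p = 0.00592). Anxa8 and Anxa7 kept their calls under all 13 alternatives.

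S100a8, which with S100a9 forms the inflammatory protein calprotectin, had intensities of 444 and 479 in control cells and 125 and 199.9 in Eva1 shRNA cells. Its log2 change was -1.72 (SE 0.27, limma adjusted p = 0.0102), and the highest adjusted p with an array left out was 0.0635, without control array 1; the call was also lost without control array 2 and with blank cells filled with the array's lowest value. S100a9 itself stood at 3.32 and 3.92 in control cells and 4.78 and 3.29 in Eva1 shRNA cells, near the lowest intensities of the arrays (1.19 to 1.44), with a log2 change of -0.05. Anxa6 fell with a log2 change of -0.57 (limma adjusted p = 0.0403) and S100a5 rose by 0.54 (adjusted p = 0.0388). Both were dim and lost their calls whichever array was left out, at adjusted p-values up to 0.194 and 0.174; with 16 units added Anxa6 had -0.28. The others were Anxa4 (-0.69), Anxa9 (-0.65), Anxa11 (-0.38), S100a3 (-0.08), S100a14 (0.04) and S100b (0.01), with adjusted p-values from 0.0516 for Anxa4 to 0.971 for S100b. Anxa9 and Anxa11 were dim, and with 16 units added had -0.34 and -0.21. The signs of S100a3 and S100a9 turned positive with the authors' scaling. S100b, the S100 protein of astrocytes, had intensities of 14.4 on each control array, and 17.7 and 16.1 in Eva1 shRNA cells. A probe with the older name S100a15, now a synonym of several genes, kept that name and was left out of the family counts. Its intensities were 112 and 107 in control cells and 102 and 109 in Eva1 shRNA cells.

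**Figure D3:**
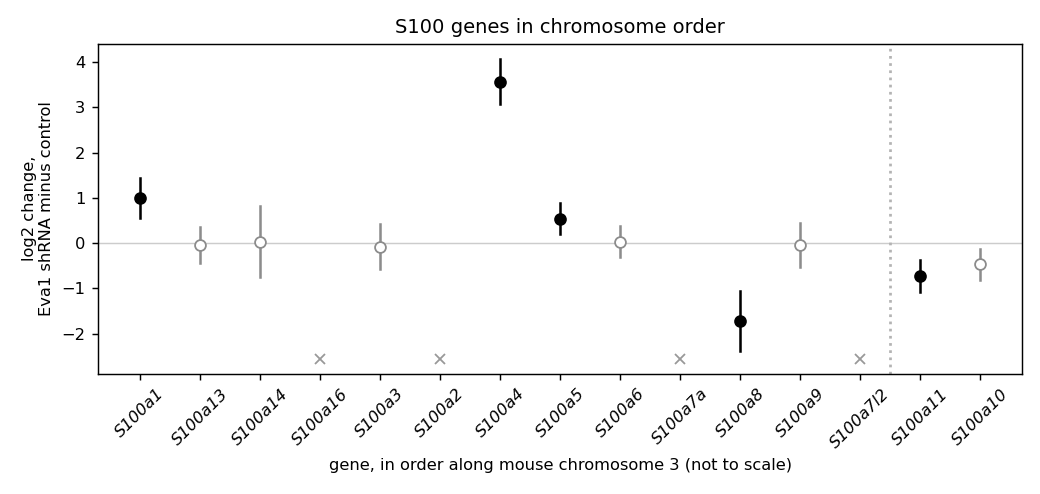
Log2 change (Eva1 shRNA minus control, with 95% interval) of the S100 genes in their order along mouse chromosome 3, not to scale; filled points passed the test, open grey points did not, crosses along the lower edge mark genes not tested, and the dotted line is a gap of other genes. S100a4 at 3.57 is followed by the filled point of S100a5 at 0.54, and S100a8 at -1.72 is beside S100a9 at -0.05.

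All 6 of the S100 members lie on mouse chromosome 3 in the RefSeq gene table, which was used for order only. From S100a1 to S100a9 the table lists 12 S100 genes with no other protein-coding gene between them. The pair S100a11 and S100a10 lies apart, beyond 54 other protein-coding genes after S100a7l2. Within the uninterrupted run, S100a4, at 3.57, is followed by S100a5 at 0.54, which was also called higher, and by S100a6 at 0.03. S100a2, just before S100a4, was not tested, and S100a3, before that, had -0.08. A relation of change to position was not tested. S100a1 at 1.00 and S100a13 at -0.04 are neighbours, as are S100a8 at -1.72 and S100a9 at -0.05. In the separate pair both values were negative, at -0.72 for S100a11 and -0.47 for S100a10. Probes of related S100 genes may share signal, which was not tested.

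Of 24 listed genes that encode binding partners and receptors of these proteins, 18 were tested. Of the 18, 2 rose, 4 fell and 12 did not pass, with a median of -0.01. Over all genes 12.5% were called higher and 13.5% lower, so the count higher is near the background. Whether the count lower exceeds its share was not tested, and it was 2 with the authors' scaling. Tlr4, a receptor for S100a8 and S100a9, rose by 1.59 (limma adjusted p = 0.0025), from intensities of 18.4 and 18.5 to 61.6 and 65.7. Myh9, a non-muscle myosin heavy chain bound by S100a4, had a log2 change of -1.12 (limma adjusted p = 0.00853). Its intensities were 199 and 180.0 in control cells and 111 and 89.0 in Eva1 shRNA cells. Myh14, another myosin heavy chain on the list, did not pass, at 0.15 (limma adjusted p = 0.678), and its groups overlapped. Thus S100a4 was called higher and Myh9 lower in the same cells. Ppp5c, a phosphatase that S100 proteins bind, rose by 0.81 (adjusted p = 0.0186), and Sugt1, a co-chaperone bound by S100a6, had -0.67 (adjusted p = 0.0222). Leaving out an array raised the adjusted p to 0.0577 for Myh9 (without Eva1 shRNA array 2), 0.102 for Ppp5c and 0.127 for Sugt1 (both without Eva1 shRNA array 1), while Tlr4 stayed called.

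In the plasminogen system, which the S100a10 and Anxa2 complex serves, 3 of 11 tested genes fell and 0 rose in limma's test. This stands beside 13.5% lower and 12.5% higher over all genes. The other 8 of the list did not pass, and its median was -0.41. At an unadjusted p under 0.05, 4 were lower and 0 higher, beside 20.2% and 19.9% of all genes. Plau, the urokinase gene, had intensities of 26.6 and 22.1 in control cells and 4.11 and 3.42 in Eva1 shRNA cells, a log2 change of -2.88 (adjusted p = 0.00116) that was -1.11 with 16 units added. Serpine2, an inhibitor of plasminogen activators, had -1.55 (adjusted p = 0.00405). Plgrkt, a plasminogen receptor, had -0.72 (adjusted p = 0.0302), but lost its call in all 4 fits on 3 arrays, at an adjusted p of up to 0.146, and also when blank cells were filled or the authors' scaling was kept. Plaur, the urokinase receptor gene, had 0.01 with an interval of -0.40 to 0.42.

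Of 16 tested genes of plasma membrane repair, a process that uses annexins, 4 fell, 2 rose and 10 did not pass. The median of the list was -0.28. Over all genes 13.5% were called lower and 12.5% higher, so the count higher is near the background. Whether the count lower exceeds its share was not tested. Syt7, a calcium sensor of lysosome exocytosis, had a log2 change of -1.17 (limma adjusted p = 0.00853), the protease gene Capn1 had -1.33 (0.0145), and Dysf, which encodes dysferlin, fell by 1.00 (0.00793). Cav1, a caveolar coat gene, rose by 0.85 (0.0179). Each of these calls was lost in some fit on 3 arrays, with an adjusted p of 0.0585 for Syt7 and 0.0767 for Capn1 without control array 1, 0.0596 for Dysf without Eva1 shRNA array 2 and 0.106 for Cav1 without Eva1 shRNA array 1. With 16 units added Dysf had -0.50.

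The genes most like S100a4 over the 4 arrays, by distance between centred log2 values, were Ccl20 (distance 0.15), Smim20 (0.22) and Cd34 (0.23). Cd34, a surface sialomucin, had intensities of 29.5 and 27.9 in control cells and 391 and 341 in Eva1 shRNA cells. Ccl20 and Smim20 were dim in control cells, at 2.67 to 3.62 and 4.94 to 7.11. Likeness over 4 arrays in 2 groups says little beyond a similar fold.

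Some of these genes are also used as markers of other cells, S100a4 for fibroblasts, S100a8 for myeloid cells and S100b for astrocytes. Beside the marker counts below, 12.5% of all genes were called higher and 13.5% lower. Of 11 fibroblast and smooth muscle markers, 10 were tested and 3 rose: Acta2 (6.22, from intensities of 4.04 and 4.38 to 408 and 316), Col1a2 (0.76) and Pdgfrb (0.54). The other 7 did not pass, among them Col3a1 (0.50, adjusted p = 0.0728) and Dcn (-2.02, adjusted p = 0.0532), and the median of the 10 was -0.15. The calls of Col1a2 and Pdgfrb were lost whichever array was left out. The summed intensity of the 10 was 838 and 925 in control cells and 1709 and 1473 in Eva1 shRNA cells. Tagln and Myh11 lay between 1.64 and 3.59 on every array and Cnn1 was blank on 2. Col3a1, the brightest of them, had 610 and 726 in control cells and 1080 and 997 in Eva1 shRNA cells. Of 8 macrophage and microglia markers, Ptprc and Itgam had a value on 2 arrays and Adgre1 on 1, and the 5 tested summed to 251 and 217 in control cells and 174 and 166 in Eva1 shRNA cells. Of these Cd68 fell (-1.17), from a mean intensity of 165 to 83.3, while the mean deposited intensities of the other 4 were higher; none of those 4 passed, and the list had a median change of 0.00. Leaving out array 1 of either group ended the call of Cd68. The part of either list in the changes of S100a4 and S100a8 was not tested. In such bulk RNA, fewer cells of a type and less RNA per cell cannot be told apart. For the labelled neural stem cell, Nes had intensities of 430 to 537, Gfap was blank on 2 arrays, and no probe was named Sox2. Of 6 neural stem cell markers tested, Fabp7 (-1.15, limma adjusted p = 0.00521) and Cd44 (-0.76, 0.021) fell, 0 rose and 4 did not pass, with a median of -0.39. Cd44 lost its call with the authors' scaling and whichever array was left out. Of 8 astrocyte markers, 4 were tested: Gja1 rose (1.32), Aldoc fell (-1.92), and S100b and Aldh1l1 did not pass. Mpzl2 had 55.0 and 54.4 in control cells and 8.20 and 6.21 in Eva1 shRNA cells, a log2 change of -3.12 (limma adjusted p = 0.00105).

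**Figure D4:**
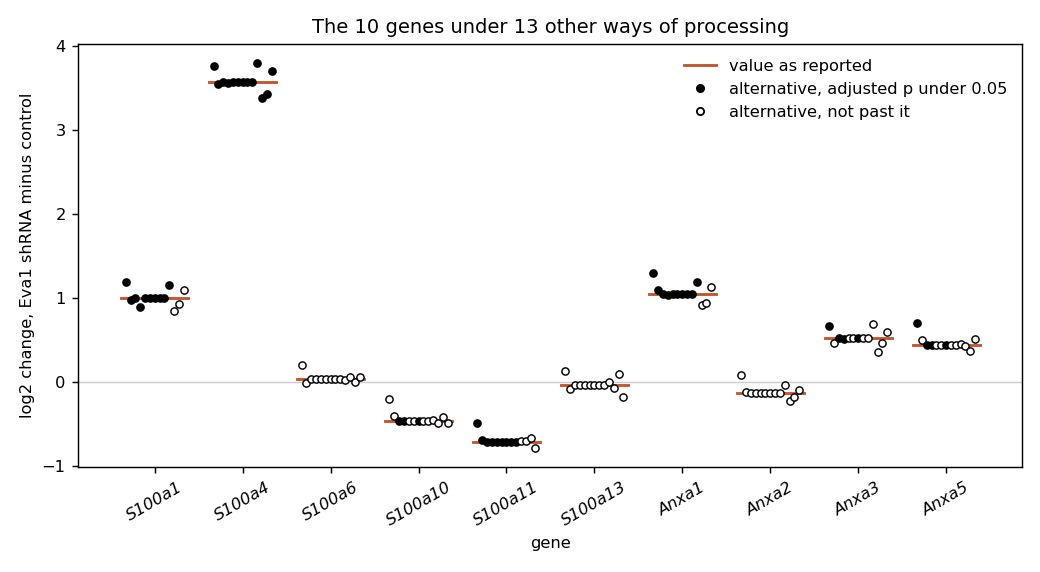
Log2 change of the 10 genes (Eva1 shRNA minus control) as reported (orange bar) and under 13 alternatives (points in a fixed order; filled where adjusted p was under 0.05). The points of S100a4 are all filled and lie between 3.37 and 3.79, while those of Anxa3, Anxa5 and S100a10 are filled under 4, 4 and 3 alternatives.

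How firmly each gene was called differed across the set. S100a4 passed under 13 of 13 alternatives, Anxa1 and S100a1 under 10 and S100a11 under 9, and every lost call came from leaving out an array. Anxa3 and Anxa5 passed under 4 and S100a10 under 3, and S100a6, S100a13 and Anxa2 under none of the 13. Without control array 1 the set had 3 genes called higher, and without any other array only S100a4. S100a11 did not pass in any of those 4 fits.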

How the data were processed

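Total RNA of 4 NSCL61 samples was amplified, coupled to Cy5 and read on 1-colour 3D-Gene mouse arrays, per the labels. The deposited intensity values are linear, and the authors scaled them to an array median near 25, as the values show; no source used here gives the scanner, the background correction or the rule for blank cells. A single gene symbol was annotated for 16631 of 23473 probes, and none for 6842; 3947 symbols were updated through the RefSeq table of GRCm38.p6.

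Log2 intensities of the 19199 probes filled on all arrays were quantile normalized, since array medians over these probes differed by 0.274 in log2. Over each array's own filled probes the deposited medians were nearly equal, at 24.96 to 25.00. Each gene took its brightest probe (13765 genes). Groups were compared with limma 3.58.1 (R 4.3.3; lmFit, eBayes); two-sided p-values were adjusted by Benjamini and Hochberg's method over all genes, and a gene was called at 0.05; the script was tested on simulated data. Figures used matplotlib 3.10.9.

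The members and lists were chosen with earlier results of these data known. The text names all members, all tested family genes, Mpzl2 and up to 4 called genes of each list by smallest p. It also names the 3 genes most like the member with the largest change. Plaur, Myh14 and the cell type markers named were picked after their values were seen. Alternatives concerned scaling (as deposited, or median centring), dim probes (the lowest 25% left out, or 16 units added to every intensity), blank cells (filled with the array's minimum), a replicate block, the eBayes options robust and trend, averaging the probes of a gene, and leaving out each array.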

Additional observations from a re-analysis of the deposited data

How the results depend on the processing

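The 10 genes counted 3 higher and 1 lower. The count higher was 5 under each of 4 settings (the authors' scaling, the dimmest 25% left out, 16 units added, the mean-variance trend), and the count lower was 2 under the last 3 of these. For the other family genes (1 higher, 4 lower), 2 were lower with blank cells filled. For binding partners (4 lower), 2 were lower with the authors' scaling and 7 without the dimmest probes. In the plasminogen list (3 lower), 5 were lower with the trend. In the membrane repair list (2 higher, 4 lower), 1 was higher with blank cells filled, and 7 were lower with the dimmest probes left out, 16 units added or the trend. Over all genes (1720 higher, 1856 lower), 2714 were higher and 1295 lower with the authors' scaling, 67.7% of calls against 48.1%, where the median change was 0.18. Without the dimmest 25% of probes, 2253 of 10679 genes were higher and 2284 lower. Of 13765 genes, 2445 were higher and 2469 lower with 16 units added, and 2490 and 2510 with the trend. Calls thus rose over all genes too, and the larger list counts under these settings stand beside these larger counts. With 1 array left out, the counts ranged from 1 to 3 higher and were 0 lower for the 10 genes, 0 higher and 2 to 3 lower for the other family genes, 1 to 2 higher and 0 to 1 lower for partners, 2 lower for the plasminogen list, 0 to 1 higher and 0 to 3 lower for membrane repair, and 485 to 1011 higher and 661 to 1025 lower for all genes. An arm left with 1 array was assumed to vary like the other. Changes near 0 turned sign: S100a13 was 0.13 and Anxa2 0.086 with the authors' scaling, S100a6 was -0.012 with median centring, and with 1 array left out S100a6 ran from -0.0049 to 0.062 and S100a13 from -0.18 to 0.10. The cause was not tested. The labels' replicate numbers are not said to pair the arrays, and deviations of same-numbered arrays correlated at -0.02. With the replicate number as a block, 1471 genes were higher and 1631 lower, 0 other family genes were higher, and no call among the 10 genes changed. Mpzl2 kept its call under every alternative, at -1.71 with 16 units added and -3.29 to -2.98 with an array left out. Signal near background and 2 arrays a group limit the sizes given for dim genes.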
